A study of Haberlea rhodopensis with 10 samples.

Results

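The expansins and xyloglucan wall enzymes of the leaf transcriptome of Haberlea rhodopensis, a resurrection plant of the Balkans, were followed through a cycle of drying and rewatering. Members were unigenes (assembled transcripts) that reached an FPKM of 1 or more in 2 or more of the 10 libraries and whose Swiss-Prot description contained expansin, xyloglucan or endoglucanase. The Nr description was read where Swiss-Prot gave none. They numbered 148 of 142473 unigenes, and 85267 unigenes passed the same filter and were tested. The wording matched 192 unigenes in all, of which 44 stayed below the filter. The 148 members were 32 alpha-expansins, 1 beta-expansin, 2 expansin-like unigenes, 39 xyloglucan endotransglucosylase/hydrolases (XTHs), 9 unigenes named Endoglucanase 25, 22 other endoglucanases, 40 enzymes of xyloglucan synthesis and 3 named Protein ALTERED XYLOGLUCAN 4-like. A name here is that of the closest Swiss-Prot protein, which came from Arabidopsis thaliana for 111 members and from rice for 33. KEGG orthology gave no entry for 29 of the 32 alpha-expansins and listed the other 3 under phospholipase D. The members stood for 97 assembly units, since 75 of them shared an assembly cluster with another member, and 36 were shorter than 500 nt. Some members can therefore be pieces or near-identical copies of 1 gene, and the split of fragments between them is uncertain.

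In a plant wall, cellulose fibrils are bound by xyloglucan, a glucan chain that carries xylose and galactose side chains. Expansins loosen this network without cutting it, XTHs cut and rejoin xyloglucan chains, and endoglucanases hydrolyse glucan chains. Leaf growth depends on these proteins, and resurrection plants are known for walls that fold as the cells lose water.

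Total RNA of mature leaves was sequenced from pot-grown plants raised in vitro, with 2 libraries for each of 5 stages. F stands for fresh leaves under regular watering, D75 for slight and D20 for severe water loss, DT for air-dry leaves and R for leaves rewatered for a week after the dry state. The treatment notes give relative water contents of 90% for F, 75% for D75, 20% for D20, 6% for DT and 90% for R, while the sample characteristics give about 100% for F and R and under 5% for DT. Full desiccation took 8 days or more and the dry state lasted 10 days, and no other treatment was labelled. Several independent plants were taken per stage. The study names independent biological replicates for its qPCR of these RNAs, but which plants went into which library is not given, and the p-values measure the spread between the libraries.

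The libraries held 4522835 to 12734565 fragments on unigenes, F replicate 2 being the shallowest. Levels are given as scaled FPKM, the deposited FPKM divided by the TMM factor of its library, which ran from 0.771 to 1.48. Fold changes and adjusted p-values come from edgeR's quasi-likelihood test over all 85267 unigenes, and a member was called at an adjusted p below 0.05. The leaf label held in the watered stages: the small chain of RuBisCO summed to 16578 and 16428 scaled FPKM at R and to 15045 and 10655 in F. In bulk leaf RNA, fewer cells of a type and less RNA per cell cannot be told apart.

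In severely dehydrated and dry leaves far more of these genes fell than rose. At D20 against F, 17 members were called higher and 70 lower, where 14.0% of all tested unigenes were called higher and 17.8% lower. The members' median log2 change was -2.77 (-2.38 with unigenes at 0 set to a floor of 3 fragments per stage), against -0.33 over all tested unigenes. At DT against F, 7 were called higher and 67 lower, with a background of 10.1% higher and 12.4% lower, and the median was -2.85 (-2.39 at the floor), against -0.22. These comparisons share the F libraries. Leaving out a library of either stage compared also lowered the share called over all tested unigenes. A fall in the counts below was therefore not particular to the members. Leaving out F replicate 2 gave 3 higher and 47 lower at D20, and 1 higher and 35 lower at DT. Leaving out D20 replicate 1 gave 5 higher and 46 lower at D20. The DT count fell to 5 higher and 38 lower without DT replicate 1, and to 2 higher and 45 lower without DT replicate 2. Of the 87 members called at D20, 44 remained called whichever of the 10 libraries was left out, and at DT 32 of 74 did.

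**Figure D1:**
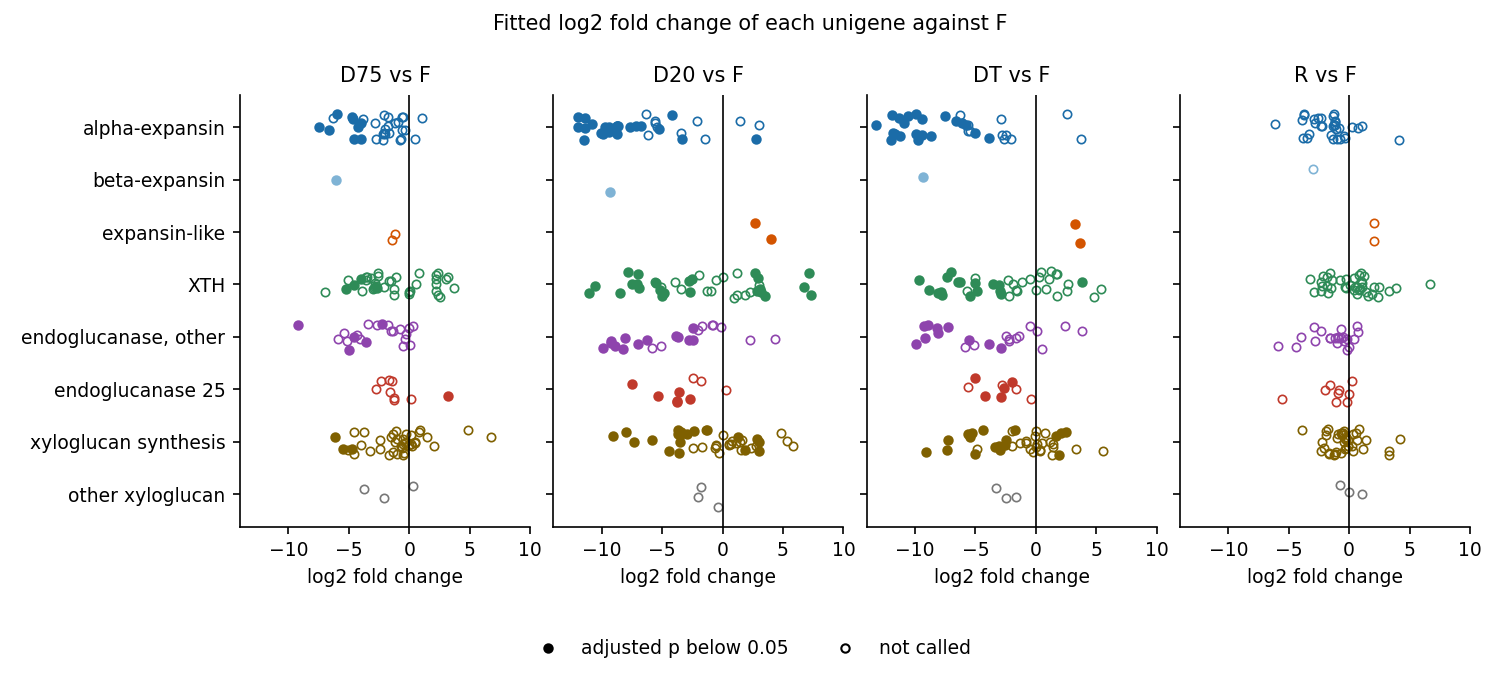
Fitted log2 fold change of each of the 148 members (points) at D75, D20, DT and R against F, by class. Filled points passed an adjusted p below 0.05, and points beyond about -7 mostly had few or no fragments in the drier stage, so their position depends on the prior count of the fit, as does that of unigenes with no fragment at F. The alpha-expansins lie left of 0 at D20 and DT with few exceptions (21 of 32 called lower in each), the XTHs and synthesis enzymes lie on both sides, and no point is filled at R.

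The classes differed in their summed levels. The alpha-expansins summed to 1161 and 1629 scaled FPKM at F, 160 and 631 in D75, 7.93 and 7.67 in D20, 8.94 and 6.76 in DT, and 719 and 349 in R. The XTHs summed to 368 and 477 in F, 73.1 and 237 in D75, 263 and 240 in D20, 53.7 and 92.1 in DT, and 475 and 643 in R. The alpha-expansin sum was thus lowest at D20 and DT with no overlap with any other stage, while the XTH sum at D20 stayed above both DT libraries and below both F libraries.

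**Figure D2:**
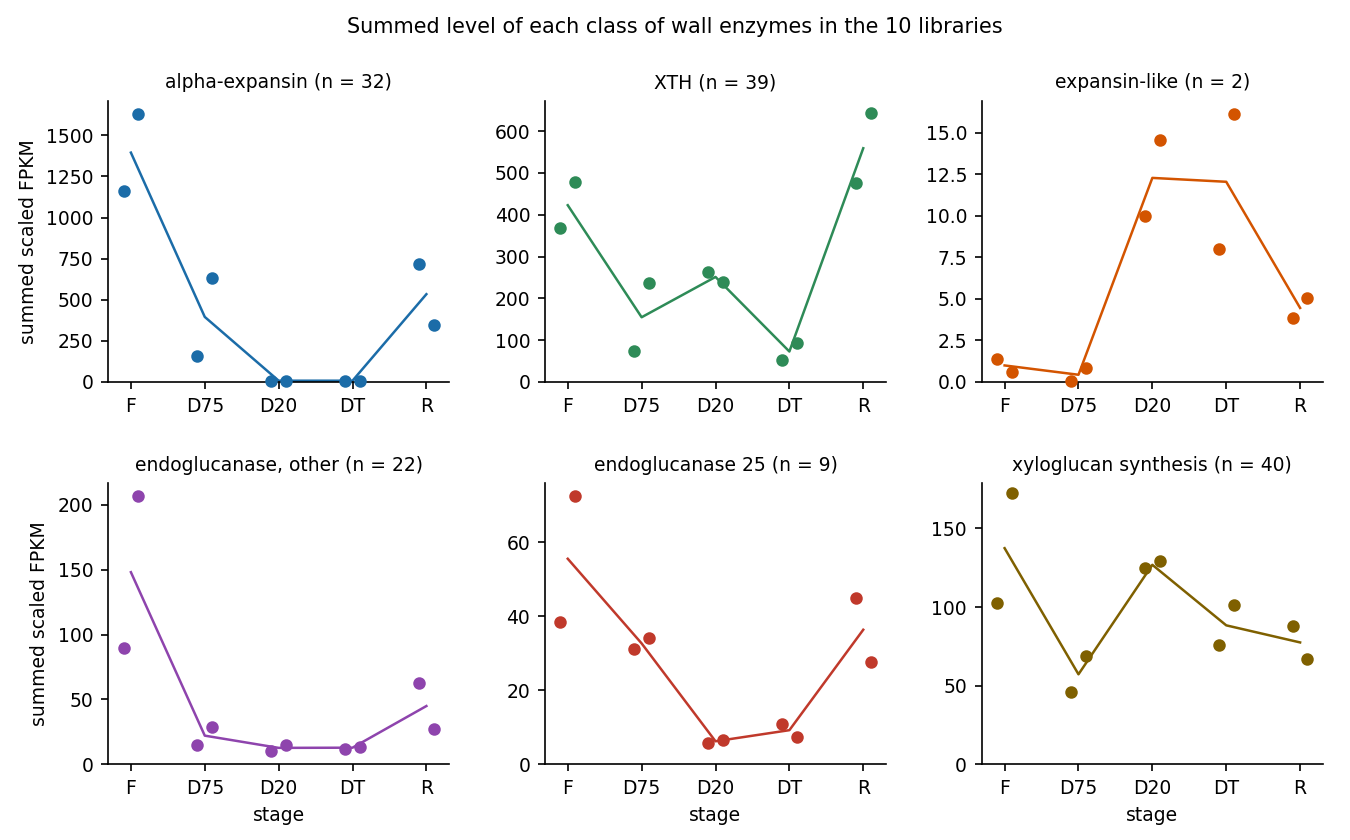
Summed scaled FPKM of 6 classes at each stage, with 1 point per library, a line through the stage means and a linear axis from 0 that differs between panels. Alpha-expansins fell to 7.93 and 7.67 in D20, against 1161 and 1629 in F, while both expansin-like unigenes summed to 9.98 and 14.6 in D20, against 1.37 and 0.619 in F.

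Alpha-expansins, the proteins that loosen walls at acid pH, were the most abundant class of these enzymes at F and nearly vanished in dry leaves. Of 32, 26 had their highest mean at F (81.2%, against 23.1% of all tested unigenes). No fragment was counted for 14 of them at D20 (43.8%, against 12.0% of all tested unigenes) and for 17 in DT (53.1%, against 11.5%). At D20 against F, 21 were called lower and 1 higher, and at DT against F, 21 were called lower and none higher. Between 18 and 27 were called lower at D20 with each library left out in turn, and between 16 and 24 at DT. Both D20 libraries lay below both F libraries in 28 of 32, where 40.4% of all tested unigenes did so, and both DT libraries in 28 of 32, against 36.1%.

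Expansin-A8 (Unigene17772) was the most abundant member at F. It had 470 and 521 scaled FPKM at F, 55.4 and 193 in D75, 0.249 and 0.0848 in D20, 0.0985 and 0.187 in DT, and 305 and 147 in R. Both dry stages lay far below every watered library, with 4 fragments at D20 and 3 in DT, against 9344 in F. The log2 change was -11.45 ± 0.94 (SE) at D20 against F (adjusted p = 2.7e-05), and at DT the counts were 3421-fold lower than at F (95% counting interval 1170 to 16592, adjusted p = 7.1e-05).

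Expansin-A2 (Unigene17758) had 156 and 221 scaled FPKM at F, 35.1 and 130 in D75, 0.110 and 0 in D20, 0 and 0.124 in DT, and 108 and 58.2 in R. With 1 fragment at D20 against 2627 in F, the counts of Unigene17758 were 3296-fold lower (95% counting interval 591 to 130235, adjusted p = 4e-05). A further Expansin-A2 (Unigene64516) had 94.9 and 106 scaled FPKM at F, 19.8 and 120 in D75, 0.166 and 0 in D20, 0 and 0 in DT, and 50.3 and 31.3 in R. It was at least 699-fold lower at DT than at F (adjusted p = 0.00022). In these unigenes D75 replicate 2 stayed near the F level while D75 replicate 1 lay several-fold below it.

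Expansin-A4 accounted for 7 members, all of them called lower at D20 and at DT. Unigene17760 had 92.6 and 197 scaled FPKM at F, 15.4 and 48.5 in D75, 0 and 0 in D20, 0 and 0 in DT, and 90.8 and 31.3 in R. It was at least 219-fold lower at D20 than at F (adjusted p = 0.00021). CL11239.Contig2 was likewise without a fragment at D20 and DT, at least 331-fold below its 763 fragments at F (adjusted p = 0.0004 in D20).

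Expansin-A1 lost most of its RNA at slight dehydration already. Unigene23840 had 48.1 and 37.5 scaled FPKM at F, 2.09 and 1.10 in D75, 0 and 0 in D20, 0 and 0 in DT, and 29.1 and 11.5 in R. Its log2 change at D75 against F was -4.71 ± 0.60 (SE, adjusted p = 0.01; lost without F replicate 2, log2 -5.28 to -4.31), and at D20 it was at least 337-fold lower than at F (adjusted p = 5.5e-05). The D75 libraries lay below all F libraries and above all D20 libraries.

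Against this pattern, 1 alpha-expansin was called higher in drying leaves. Expansin-A13 (Unigene8510) had 0.392 and 0.751 scaled FPKM at F, 0 and 0.702 in D75, 3.99 and 3.87 in D20, 2.37 and 4.41 in DT, and 0.426 and 0.0802 in R. Its D20 and DT libraries all lay above those of the other stages. The log2 change of Unigene8510 at D20 against F was 2.79 ± 0.96 (SE, adjusted p = 0.044), a call that held without either D75 library but was lost without any other of the 10 (log2 2.27 to 3.28). Of the other 4 unigenes named Expansin-A13, 2 were called lower at D20 and 3 at DT. Unigene8510 made up 50.4% of the summed alpha-expansin level at D20 and 43.2% at DT, while Expansin-A8 (Unigene17772) made up 42.3% at R and 35.5% at F.

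The other expansin families went in opposite directions. Expansin-B3 (Unigene39239), a beta-expansin, had 2.09 and 13.8 scaled FPKM at F, 0.0627 and 0.156 in D75, 0 and 0 in D20, 0 and 0 in DT, and 1.82 and 0.215 in R. It was at least 54.8-fold lower at D20 than at F (adjusted p = 0.0031). Both unigenes named Expansin-like A1, a related family whose action on walls is not established, were called higher at D20 and at DT.

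Expansin-like A1 (CL1931.Contig1) had 0.627 and 0.491 scaled FPKM at F, 0.0536 and 0.469 in D75, 7.26 and 11.2 in D20, 4.75 and 10.2 in DT, and 2.43 and 2.48 in R. Its log2 change was 4.00 ± 0.69 (SE, adjusted p = 0.0012) at D20 against F and 3.69 ± 0.69 (adjusted p = 0.0029) at DT against F, both called with every library left out in turn. CL1931.Contig2 of the same cluster gave 2.68 ± 0.88 in D20 (adjusted p = 0.036), which failed without any 1 of the F, D20, DT and R libraries, and 3.27 ± 0.88 in DT (adjusted p = 0.02), which failed without F replicate 2 or DT replicate 2. At R both unigenes lay above F in both libraries without passing the test, with adjusted p = 0.43 for CL1931.Contig1 and 0.55 for CL1931.Contig2.

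**Figure D3:**
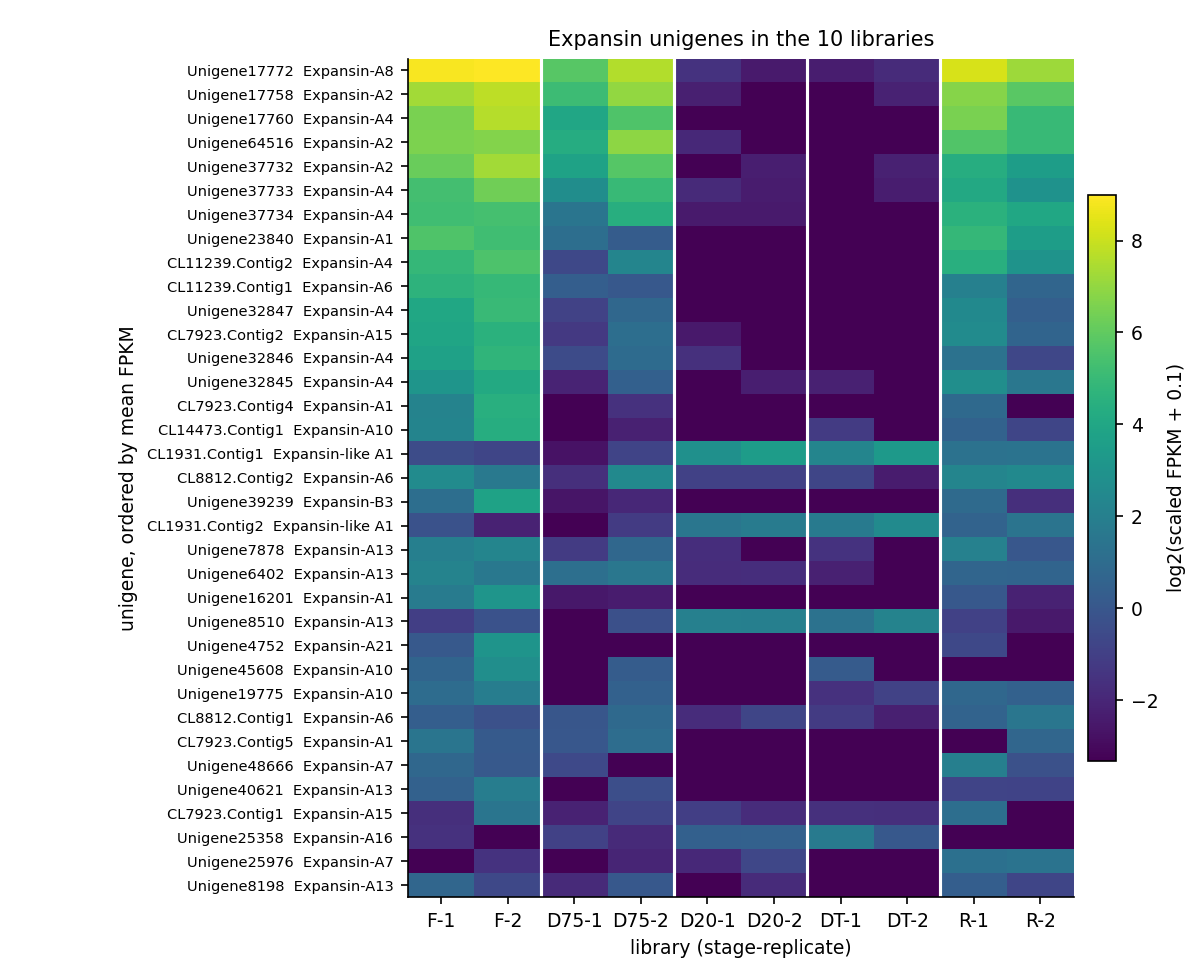
Level of the 35 expansin unigenes (rows, ordered by mean FPKM) in the 10 libraries (columns, stage-replicate), as log2(scaled FPKM + 0.1). The upper rows are bright at F and R and dark at D20 and DT, for example Expansin-A8 (Unigene17772) with 0.0985 and 0.187 scaled FPKM at DT, against 470 and 521 in F, while Expansin-like A1 (CL1931) and Expansin-A13 (Unigene8510) are brightest at D20 and DT.

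Among the XTHs, some unigenes fell with drying, some rose at D20, and some had their highest level after rewatering. At D20 against F, 9 of 39 were called higher (23.1%) and 15 lower (38.5%), against 14.0% and 17.8% of all tested unigenes. The 39 stood for 25 assembly units, and unigenes of the clusters CL5827 and CL8199 were counted singly among the higher calls. The number of higher calls depended on single libraries, as the omissions below show. Fewer of all tested unigenes were called at D20 too when an F or D20 library was left out. The omissions therefore do not show whether the excess over the background was lost. At DT against F, 1 was higher (2.56%, below the background of 10.1%) and 16 lower (41.0%, against 12.4%). The D20 calls became 1 higher and 11 lower if F replicate 2 was left out, 2 and 10 if D20 replicate 1 was, 5 and 13 if F replicate 1 was, and 5 and 12 if D20 replicate 2 was. At DT, leaving out DT replicate 1 gave 9 lower, F replicate 1 or 2 gave 0 higher, and either D75 library gave 4 higher and 18 lower. All but 1 of the 39 carried the KEGG orthology entry of xyloglucan:xyloglucosyl transferase.

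Unigenes named XTH 25 led the group that fell, with 6 of 7 called lower at D20 and at DT. They summed to 56.3 and 107 scaled FPKM at F, 5.40 and 15.3 in D75, 0.0677 and 0.836 in D20, 1.11 and 0.761 in DT, and 34.4 and 13.5 in R. CL9424.Contig2 had 14.2 and 27.0 in F, 2.17 and 4.56 in D75, 0 and 0 in D20, 0.0892 and 0.0846 in DT, and 6.64 and 1.69 in R. It was at least 181-fold lower at D20 than at F (adjusted p = 0.00011).

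Unigenes named XTH 9 and XTH 7, chosen after their values were seen, fell likewise. XTH 9 (Unigene48186) had 34.7 and 27.2 scaled FPKM at F, 5.55 and 4.18 in D75, 0.159 and 0.163 in D20, 0.284 and 0.0896 in DT, and 22.0 and 15.9 in R. Its log2 change was -2.65 ± 0.42 (SE, adjusted p = 0.014) at D75 against F and -7.51 ± 0.58 (adjusted p = 2.7e-05) at D20 against F. The D75 call was lost without F replicate 2 (log2 between -2.89 and -2.44 over the 10 omissions). XTH 7 (CL2755.Contig31) had 14.0 and 26.1 scaled FPKM at F, 0.820 and 1.73 in D75, 0.104 and 0 in D20, 0 and 0.0780 in DT, and 26.8 and 16.5 in R. The counts of CL2755.Contig31 were 364-fold lower at D20 than at F (95% counting interval 124 to 1768, adjusted p = 7.3e-05). In both unigenes the F and R ranges stood apart from D75, and D75 apart from D20 and DT.

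The opposite change was seen in the cluster CL8199, named XTH 23. CL8199.Contig2 had 0.226 and 0.619 scaled FPKM at F, 0.135 and 1.35 in D75, 52.2 and 68.6 in D20, 2.69 and 8.91 in DT, and 1.47 and 1.97 in R. D20 stood alone, far above all other libraries, and DT still lay above F. The log2 change of CL8199.Contig2 was 7.18 ± 0.93 (SE, adjusted p = 0.00021) at D20 against F and 3.80 ± 0.90 (adjusted p = 0.01) at DT against F. The D20 call held with each library left out, while the DT call was lost without F replicate 1, F replicate 2 or DT replicate 2 (log2 2.69 to 4.61). At DT against D20 the difference did not pass (adjusted p = 0.074). The other unigene of the cluster, CL8199.Contig1, had 6.07 and 10.4 scaled FPKM at D20, against 0 and 0 in F, and was at least 10.7-fold higher (adjusted p = 0.0091), a call lost without F replicate 1, F replicate 2 or D20 replicate 2.

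Unigenes named XTH 30 gave 6 of the 9 calls for higher XTH RNA at D20. The 11 unigenes summed to 21.0 and 9.51 scaled FPKM at F, 43.6 and 98.2 in D75, 116 and 92.5 in D20, 33.9 and 26.2 in DT, and 44.8 and 72.0 in R. The sums were above F in every other library, and 7 of the 11 belonged to the cluster CL5827. Its most abundant unigene, CL5827.Contig7 (chosen after its values were seen), had 50.4 and 34.5 scaled FPKM at D20, against 7.67 and 2.15 in F. The log2 change was 3.09 ± 0.82 (SE, adjusted p = 0.014), lost without F replicate 2 or D20 replicate 1 (log2 2.45 to 4.20). With fragments summed over the cluster CL5827, the log2 change at D20 against F was 2.76 ± 0.61 (adjusted p = 0.0045). None of the 11 was called at DT against F. Outside that cluster, XTH 30 (Unigene34830) was at least 7.13-fold higher at D20 than at F (adjusted p = 0.019), and XTH 26 (CL9956.Contig2) rose by 3.53 ± 1.07 on the log2 scale (adjusted p = 0.025). Both calls were lost without F replicate 1, F replicate 2 or D20 replicate 1. Of the 3 unigenes named XTH 26, 1 was called higher and 1 lower at D20 against F. Together they summed to 11.3 and 6.93 scaled FPKM at D20, against 13.7 and 17.5 in F.

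A different course was seen in XTH 12 and in the cluster CL13291, again named XTH 23. XTH 12 (Unigene24188) had 45.1 and 98.7 scaled FPKM at F, 0.637 and 18.6 in D75, 16.5 and 20.2 in D20, 1.15 and 3.27 in DT, and 127 and 262 in R. R lay above every F library, but the log2 change at R against F, 1.43 ± 0.87 (SE), did not pass (adjusted p = 0.65). At R against DT the log2 change of Unigene24188 was 6.42 ± 1.14 (adjusted p = 0.0034), lost without DT replicate 1 (log2 5.84 to 7.35).

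CL13291.Contig2, the XTH with the highest mean, had 112 and 78.9 scaled FPKM at F, 8.52 and 70.8 in D75, 48.9 and 30.3 in D20, 4.41 and 34.3 in DT, and 116 and 139 in R. Replicates differed by several-fold at D75 and DT, and it was called in no comparison. CL13291.Contig1 had 61.5 and 99.3 in R, 1.72 and 7.43 in DT and 35.9 and 41.1 in F, and it was called higher at R than at DT (log2 4.13 ± 0.76 (SE), adjusted p = 0.0041).

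**Figure D4:**
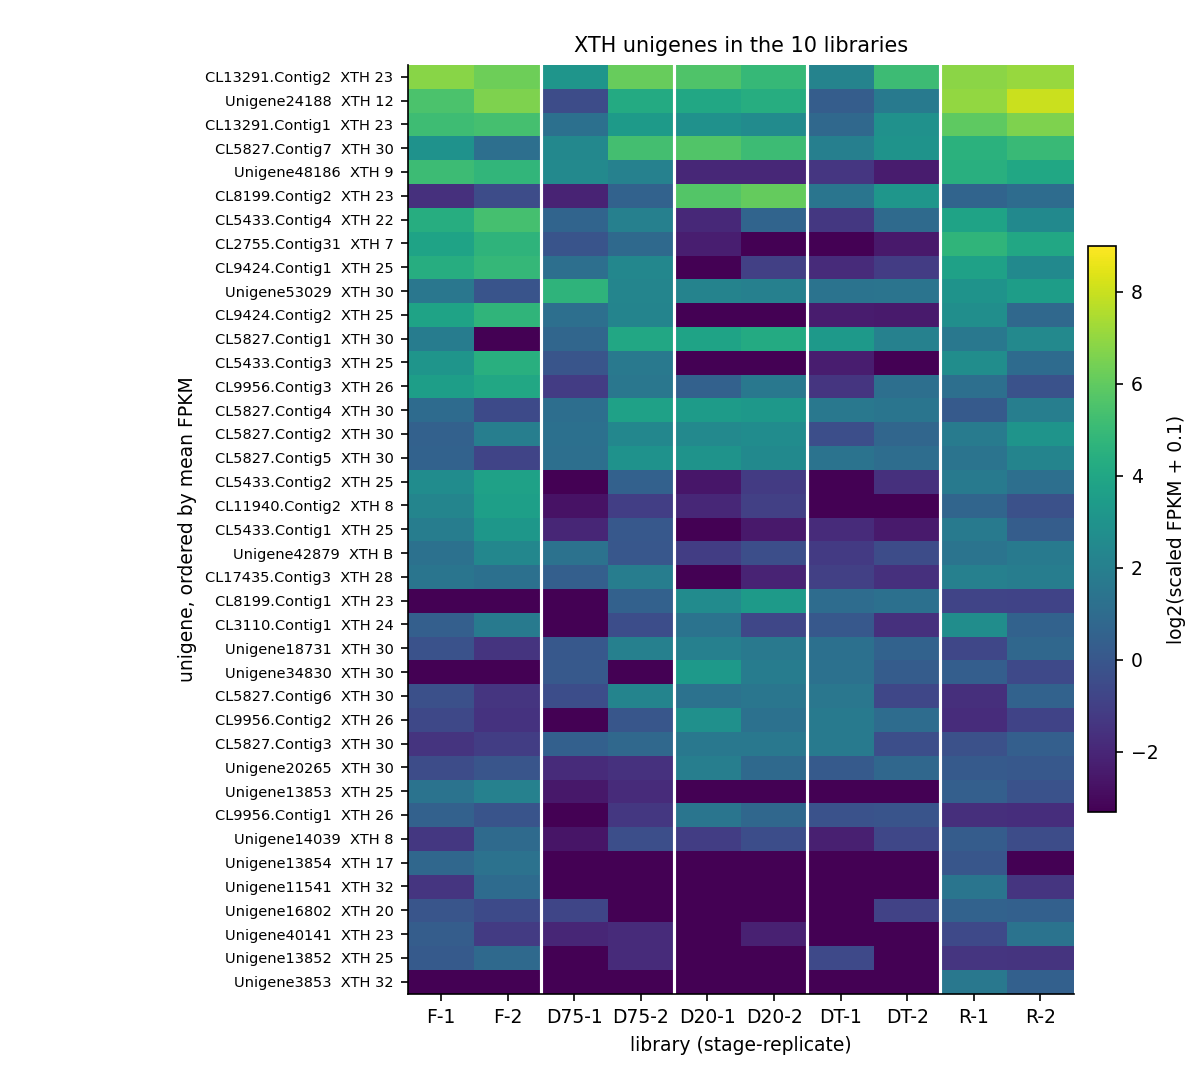
Level of the 39 XTH unigenes (rows, ordered by mean FPKM) in the 10 libraries (columns, stage-replicate), as log2(scaled FPKM + 0.1). Rows such as XTH 9 (Unigene48186) and XTH 25 are dark at D20 and DT, CL8199.Contig2 is bright at D20 alone (52.2 and 68.6 scaled FPKM), and XTH 12 (Unigene24188) is brightest at R (127 and 262).

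Endoglucanases other than Endoglucanase 25 were called only lower at D20 and DT against F, but not all fell. Of 6 named Endoglucanase 10, 1 was called lower at D20. The 1 named Endoglucanase 24 had a log2 change of 2.29 there without a call. The split from Endoglucanase 25 rests on the names, and the cluster CL1063 holds unigenes of both groups. Of the 22 in this class, 13 were called lower at D20 against F and 10 at DT against F, and none was called higher. Those shares were 59.1% at D20 and 45.5% at DT, against 17.8% and 12.4% of all tested unigenes. Without F replicate 2, 7 were lower at D20 and 5 in DT, and leaving out D20 replicate 1 or D20 replicate 2 gave 8 in D20. Endoglucanase 6 (CL6717.Contig2) had 29.3 and 77.6 scaled FPKM at F, 3.55 and 5.15 in D75, 0.492 and 0.348 in D20, 0.180 and 0.511 in DT, and 9.57 and 4.72 in R. The F libraries differed from each other by more than 2 fold, yet both lay above all others. The log2 change was -6.99 ± 0.71 (SE, adjusted p = 5.8e-05) at D20 against F.

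Endoglucanase 2 (CL6717.Contig1) came from the same cluster and had 7.26 and 24.5 scaled FPKM at F, none at D75, D20 or DT, and 1.48 and 0 in R. It was at least 70.3-fold lower at D75 than at F (adjusted p = 0.031), a call lost without any 1 of the F and DT libraries. Endoglucanase 9 (CL1063.Contig5) had 9.70 and 15.0 in F, 2.49 and 2.54 in D75, 0.694 and 1.18 in D20, 1.65 and 1.72 in DT, and 6.90 and 4.27 in R, a smaller change of -3.72 ± 0.47 (SE, adjusted p = 0.00017) at D20 against F. Both unigenes named Endoglucanase 17 had no fragment at D20 or DT.

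Endoglucanase 25 is the KORRIGAN enzyme of Arabidopsis, a membrane protein needed for cellulose synthesis. Of the 9 unigenes so named, 6 were called lower at D20 and 5 at DT, where 17.8% and 12.4% of all tested unigenes were lower. Those counts were 3 and 1 without F replicate 2, 3 in D20 without D20 replicate 1, and at DT 0 without DT replicate 1 and 2 without DT replicate 2. CL1063.Contig2 had 11.0 and 17.7 scaled FPKM at F, 2.00 and 9.99 in D75, 1.74 and 0.445 in D20, 2.58 and 1.96 in DT, and 15.0 and 10.3 in R. The log2 change at D20 against F was -3.64 ± 0.88 (SE, adjusted p = 0.0081), lost without F replicate 2 or D20 replicate 2 (log2 -4.84 to -3.00). Unigene43283 had 0.315 and 1.29 scaled FPKM at D20, against 6.23 and 17.1 in F (log2 -3.79 ± 1.02, adjusted p = 0.014, lost without F replicate 2 or D20 replicate 1). Unigene68976 had 0 and 0.476 scaled FPKM at D20, against 7.66 and 16.8 in F, a call held with each library left out (adjusted p = 0.0028). The 9 members named Endoglucanase 9, 10 or 25 in the cluster CL1063, summed, gave -2.83 ± 0.43 (adjusted p = 0.00034).

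A single unigene of this name was higher at slight dehydration. Unigene9759 had 2.37 and 0.650 scaled FPKM at F, 19.2 and 9.34 in D75, 2.16 and 1.62 in D20, 1.88 and 0.486 in DT, and 1.72 and 1.94 in R. D75 stood above all other libraries. The log2 change of Unigene9759 at D75 against F was 3.20 ± 0.70 (SE, adjusted p = 0.041), a call that held without either D75 library but was lost without any other library (log2 2.54 to 4.43).

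The enzymes of xyloglucan synthesis are described by step, a split into 3 types made after the values were seen. Unigenes named xyloglucan glycosyltransferase build the glucan backbone, xyloglucan 6-xylosyltransferases add xylose, and galactosyltransferases of the KATAMARI1 type add galactose to a xylose. At D20 against F, 10 of 12 backbone enzymes were called lower and none higher, where 17.8% of all tested unigenes were lower and 14.0% higher. Of the 12 xylosyltransferases, 3 were called higher and 3 lower, and of the 16 KATAMARI1 members, 2 were higher, a share near that background, and 1 was lower. All 40 synthesis enzymes together gave 5 higher and 14 lower calls at D20, which became 1 and 7 if F replicate 2 was left out, 2 and 13 if F replicate 1 was, 2 and 5 if D20 replicate 1 was, 2 and 10 if D20 replicate 2 was, and 10 and 15 if either D75 library was. KEGG listed 11 synthesis members under beta-mannan synthase, so the named substrate of the backbone enzymes rests on the Swiss-Prot description.

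The backbone enzymes summed to 43.3 and 101 scaled FPKM at F, 4.60 and 7.64 in D75, 4.63 and 6.34 in D20, 4.42 and 10.2 in DT, and 28.3 and 15.1 in R. The xylosyltransferases summed to 26.0 and 32.1 in F, 19.0 and 24.1 in D75, 59.2 and 60.0 in D20, 30.5 and 35.1 in DT, and 24.9 and 19.2 in R. The KATAMARI1 members summed to 33.2 and 39.6 in F, 22.1 and 37.1 in D75, 60.8 and 62.8 in D20, 40.7 and 55.8 in DT, and 34.6 and 33.0 in R. The D20 sums of both side-chain groups lay above all other libraries, and the F sums of the backbone enzymes lay above all other libraries. The difference between the groups was not tested.

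**Figure D5:**
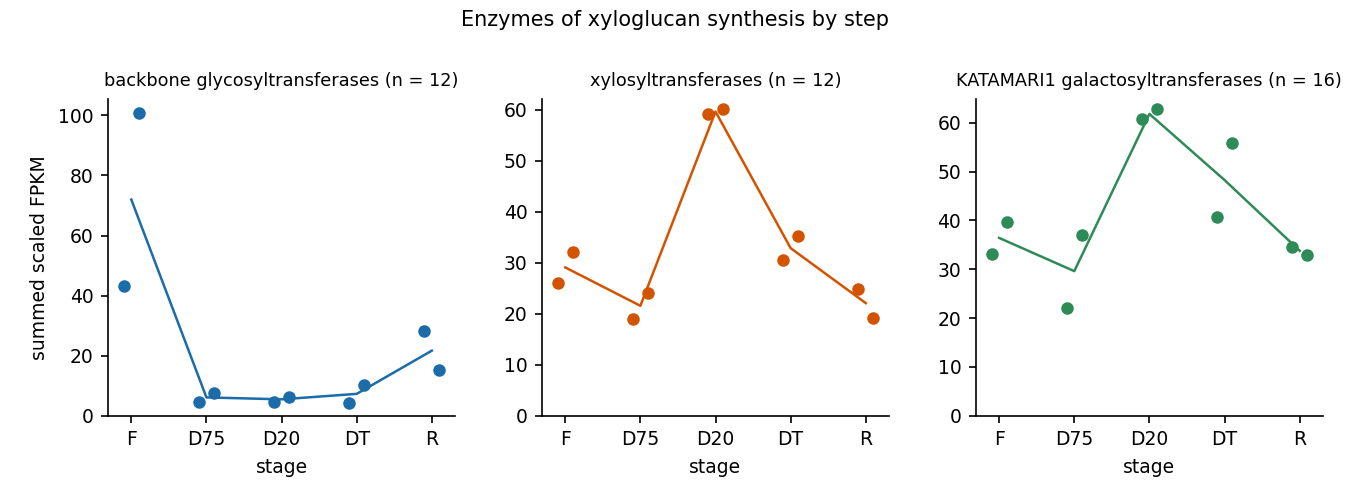
Summed scaled FPKM of the enzymes of xyloglucan synthesis by step, with 1 point per library, a line through the stage means and a linear axis from 0 that differs between panels. Backbone glycosyltransferases lay at 4.63 and 6.34 in D20, against 43.3 and 101 in F, while xylosyltransferases lay at 59.2 and 60.0 in D20, against 26.0 and 32.1 in F.

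Xyloglucan glycosyltransferase 4 (CL1100.Contig1), the most abundant backbone enzyme, had 17.6 and 40.4 scaled FPKM at F, 0.524 and 3.80 in D75, 1.52 and 3.26 in D20, 1.49 and 5.81 in DT, and 8.11 and 3.97 in R. The log2 change was -3.61 ± 0.89 (SE, adjusted p = 0.0089) at D20 against F and -3.00 ± 0.86 (adjusted p = 0.026) at DT against F. Both were lost without F replicate 2, the D20 call also without D20 replicate 1 and the DT call also without DT replicate 1 (log2 from -4.29 to -2.27). All F libraries lay above every other library.

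Among the xylosyltransferases, CL3421.Contig6 had 1.63 and 1.01 scaled FPKM at F, 0.354 and 2.65 in D75, 11.2 and 10.3 in D20, 8.16 and 7.43 in DT, and 3.54 and 2.58 in R. Its log2 change was 2.98 ± 0.71 (SE, adjusted p = 0.0074) at D20 against F, lost without F replicate 2 (log2 2.69 to 3.29). Another unigene of that cluster, CL3421.Contig5 (chosen after its values were seen), went the other way, with -1.28 ± 0.39 (adjusted p = 0.026; lost without F replicate 2, D20 replicate 1 or D20 replicate 2). Summed over the 6 unigenes of CL3421, the log2 change was 0.57 ± 0.34 and did not pass (adjusted p = 0.21), so the direction differed between unigenes of 1 assembly cluster.

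KATAMARI1 members in the cluster CL14371 were highest in the dry state. CL14371.Contig1 had 1.89 and 2.37 scaled FPKM at F, 1.47 and 1.37 in D75, 3.25 and 4.15 in D20, 4.82 and 8.96 in DT, and 1.03 and 1.66 in R. Its log2 change was 1.69 ± 0.45 (SE, adjusted p = 0.019) at DT against F and -2.35 ± 0.47 (adjusted p = 0.006) at R against DT. The DT call was lost without F replicate 1, F replicate 2 or DT replicate 2, and the R call without DT replicate 2 or R replicate 1. Summed over the 4 unigenes of CL14371, DT against F gave 1.66 ± 0.40 (adjusted p = 0.011). CL3726.Contig2 (chosen after its values were seen) had 10.6 and 9.50 scaled FPKM at D20, against 1.48 and 1.24 in F, and its log2 change of 2.87 ± 0.58 (adjusted p = 0.003) was called with each library left out.

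The 3 unigenes named ALTERED XYLOGLUCAN 4-like, after an Arabidopsis protein that acetylates xyloglucan, had few fragments. Each stayed at or below 2.60 scaled FPKM in every library, and none was called in any comparison. Unigene43190 had 0.113 and 1.62 scaled FPKM at D20, against 1.24 and 1.02 in F, from 15 fragments at D20 and 16 in F, so that its stages overlapped.

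Slight dehydration gave a weaker and less certain picture. At D75 against F, 1 member was called higher and 22 lower, against 0.671% higher and 1.16% lower among all tested unigenes, with a median log2 change of -1.55, against 0.05 over all tested unigenes. The lower calls held 9 alpha-expansins, 5 endoglucanases, 4 XTHs, 3 backbone enzymes and the beta-expansin. Expansin-A10 (CL14473.Contig1) had 0 and 0.119 scaled FPKM at D75, against 4.63 and 20.5 in F, with 1 fragment at D75 and 123 in F (adjusted p = 0.02). The number called depended on single libraries. The share called over all tested unigenes rose or fell with it in each omission below. Leaving out F replicate 2 gave 0 and F replicate 1 gave 12, while D75 replicate 1 gave 41 and D75 replicate 2 gave 74. Leaving out either D20 library gave 13, and either DT library gave 11. The D75 libraries differed from each other in these genes, with a median absolute log2 difference of 1.24 over 60 members that had at least 10 fragments in each, against 0.67 over all such unigenes.

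At D20 against D75, 15 members were called higher and 24 lower, so that the members' shares (10.1% and 16.2%) were near the background of 10.7% and 14.5%, and the median log2 change was -0.68 (-0.43 at the floor), against -0.38. Of the 32 alpha-expansins, 12 were called lower and 1 higher. Of the 40 synthesis enzymes, 7 were higher (17.5%) and 1 lower, among them the KATAMARI1 member CL17511.Contig1 with 17.3 and 17.9 scaled FPKM at D20, against 5.12 and 4.97 in D75 (log2 1.77 ± 0.37 (SE), adjusted p = 0.0051). Leaving out D20 replicate 1 gave 22 calls over all members and 2 higher synthesis enzymes, D20 replicate 2 gave 4 of these, and D75 replicate 2 gave 59 calls and 13 of these. The alpha-expansins called lower were 19 if D75 replicate 1 was left out.

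The step from severe drying to the dry state gave no call. At DT against D20, 0 members were called by edgeR, where 0.220% of all tested unigenes were called higher and 0.108% lower. At an unadjusted p below 0.05, 2 members were higher and 13 lower, against 6.72% and 6.29% of all tested unigenes. DESeq2 called 3, limma on log2(FPKM + 1) 1 and limma on log2(FPKM + 0.1) 0. Without either D75 library some members were called, at a share near that of all tested unigenes under the same omission. Of the 13 lower, 7 were XTHs, and 4 of these belonged to the cluster CL5827.

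In rehydrated leaves alpha-expansins and XTHs were high again. At R against DT, 44 members were called higher and 5 lower, where 9.30% of all tested unigenes were higher and 5.96% lower. The median log2 change was 2.34 (1.78 at the floor), against 0.09 over all tested unigenes. The higher calls held 18 alpha-expansins, 16 XTHs, 7 endoglucanases, 1 Endoglucanase 25 and 2 backbone enzymes. The 5 lower were Expansin-A13 (Unigene8510), Expansin-A16 (Unigene25358) and 3 KATAMARI1 members of CL14371. None of these 5 was called without DT replicate 2 or R replicate 1, 1 member was called lower without DT replicate 1 or R replicate 2, 2 without either D20 library, 3 without F replicate 1, and 11 without either D75 library. The total of 49 fell to 21 without DT replicate 1, 16 without DT replicate 2 and 21 without R replicate 1. Over the same omissions, in that order, the alpha-expansins called higher were 12, 9 and 11 and the XTHs 6, 6 and 8.

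Expansin-A8 (Unigene17772) had 4660 fragments at R against 3 in DT, a ratio of 1557 (95% counting interval 532 to 7551, adjusted p = 0.00016). Expansin-A2 (Unigene64516) was at least 284-fold higher at R than at DT (adjusted p = 0.00063), and Expansin-A1 (Unigene23840) at least 140-fold (adjusted p = 0.00036). XTH 9 (Unigene48186) had 22.0 and 15.9 scaled FPKM at R, against 0.284 and 0.0896 in DT, with a log2 change of 6.60 ± 0.57 (SE, adjusted p = 0.00016). Endoglucanase 8 (Unigene18960, chosen after its values were seen) had 10.2 and 1.89 in R, against 0 and 0 in DT and 2.10 and 5.14 in F. Its R replicate 1 lay above both F libraries and its R replicate 2 below both.

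Against the fresh state the rehydrated leaves gave no call by edgeR with all 10 libraries. At R against F, edgeR called 0 members, where 0.0293% of all tested unigenes were higher and 0.00938% lower, and 8 members higher and 34 lower had an unadjusted p below 0.05, against 4.54% and 4.21% of all tested unigenes. DESeq2 called 5 members, where it called 0.737% of all tested unigenes. Limma on log2(FPKM + 1) called 2, against 0.337%, and limma on log2(FPKM + 0.1) called 0. The members' median log2 change in edgeR was -0.67, against 0.00 over all tested unigenes. It was -0.70 without D75 replicate 1, against -0.03, and -0.67 without D75 replicate 2, against -0.0007. Under each of these omissions some members were called, more of them lower than higher, while more of all tested unigenes were called too. Of the 32 alpha-expansins, 28 had a fitted change below 0 and a median of -1.32, while 23 of the 39 XTHs had one above 0 and a median of 0.49. Expansin-A8 (Unigene17772) had 305 and 147 scaled FPKM at R, against 470 and 521 in F, with a log2 change of -1.14 ± 0.57 (adjusted p = 0.59). Both of its R libraries lay below both F libraries, and the difference did not pass the test.

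The replicates spread more in these genes than over all unigenes at F, D75, DT and R. F replicate 2 was above F replicate 1 in 77 of 90 members with at least 10 fragments in each library (median log2 difference 0.89), while the median over all such unigenes was -0.02. At R, replicate 2 was above replicate 1 in 27 of 75 members (median -0.46, against -0.01). At D20 the libraries were close, with a median absolute difference of 0.33, against 0.31.

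Counts of other wall gene families at D20 are read against 14.0% higher and 17.8% lower among all tested unigenes. Of 44 tested cellulose synthase A catalytic subunits, which make cellulose, 22 were called lower and 0 higher at D20 against F, and 22 lower at DT. Both unigenes named Alpha-L-fucosidase 1, a fucose-releasing enzyme, were called lower at D20, and Unigene24044 had 0.0572 and 0.0585 scaled FPKM at D20, against 6.65 and 10.1 in F (log2 -7.01 ± 0.69, adjusted p = 5e-05). Of 8 alpha-xylosidases, 1 was higher and 4 lower. Of 27 beta-galactosidases, 7 were higher and 6 lower, and Beta-galactosidase 8 (Unigene1716) had 129 and 101 in D20, against 38.4 and 34.8 in F (log2 1.64 ± 0.48, adjusted p = 0.022). Of 6 COBRA proteins, 3 were higher and 2 lower, and of 17 cellulose synthase-like proteins 2 were higher and 7 lower.

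Most markers of the cell types in a leaf fell at the same stages. Their counts are read against 14.0% higher and 17.8% lower among all tested unigenes at D20, and 12.4% lower at DT. The small chain of RuBisCO summed to 74.9 and 81.5 scaled FPKM at D20 and 992 and 539 in DT, against 15045 and 10655 in F, and all 6 tested unigenes were called lower at each. Of 43 chlorophyll a-b binding unigenes, 34 were lower at D20. The 10 unigenes named 3-ketoacyl-CoA synthase 6, an epidermal wax enzyme, summed to 1.07 and 1.32 in D20, against 288 and 222 in F, and 7 were called lower. The MERISTEM L1 unigenes summed to 1.63 and 1.73 in D20, against 22.2 and 22.4 in F, with 7 of 7 lower, and those named PROTODERMAL FACTOR to 0.594 and 0 in D20, against 34.4 and 55.8 in F, with 6 of 8 lower. Among guard cell markers 3 of 3 FAMA, 2 of 3 SLAC1 and 2 of 2 KAT1 unigenes were lower at D20, and 1 SLAC1 unigene was higher. Their sums were 0.449 and 0.344 in D20 against 5.64 and 3.73 in F for FAMA, 3.57 and 2.72 against 9.43 and 9.99 for SLAC1, and 0.0472 and 0 against 3.10 and 2.35 for KAT1. Of the vascular markers, the xylem cysteine proteinase and 4 of 8 subunits of cellulose synthase 4, 7 or 8 were lower, and the sieve element occlusion unigene had 0 fragments in both D20 libraries and was not called. Cyclin-B, a marker of dividing cells, summed to 102 and 87.3 in D20, against 117 and 62.3 in F, with 1 of 7 lower. Cyclin-A summed to 4.72 and 4.76 in D20, against 6.48 and 14.1 in F, with 1 of 7 higher, 2 lower and a median log2 change of -2.95. The cyclin calls are too few to set apart from the background. No unigene was annotated as MYB60 or SUC2, and the 1 named cyclin-dependent kinase B was not tested. The mesophyll, epidermis and guard cell markers thus fell with the alpha-expansins, the summed cyclin-A level was also below F, and the D20 sums of cyclin-B lay within the F range. Their part in the result was not tested.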

How the data were processed

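Leaf RNA-seq libraries (2 per stage, 5 stages) were grouped by the sample descriptions. The authors trimmed reads with SeqPrep and Sickle, assembled unigenes de novo with Trinity and quantified them with RSEM, and the aligner and versions are not given in the sources used here. The deposited table holds whole fragment counts, which were tested as deposited. The deposited FPKM values are fragments scaled by unigene length and library total, and recomputing them matched all 1424730 values within 0.0001. Raw reads of D75 and D20 were slightly shorter than those of F, DT and R, so D20 against F crosses that difference and DT against F does not. The table left 0 columns of values per sample unused.

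The 85267 unigenes that reached FPKM 1 in 2 or more libraries were fitted with edgeR 4.0.16 (TMM, glmQLFit, glmQLFTest, R 4.3.3), with 1 coefficient per stage, with Benjamini-Hochberg adjustment over all of them. Its residual degrees of freedom were 5, the prior ones 7.403 (median), and the common biological coefficient of variation was 0.4354. SE was taken as the absolute log2 change divided by the square root of the F statistic. Where a stage had 0 fragments, the fold is a lower bound set by 3 fragments over that stage, and with 1 to 3 fragments the ratio of scaled counts has an exact 95% interval that covers counting error only. The script was tested on simulated data.

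The members and lists were chosen with earlier results of these data known. Members were named by a rule: the 3 with the highest mean FPKM per class, and, among those called with a mean FPKM of at least 1, the 6 with the largest change per direction for each comparison with F and the 3 for R against DT. Members outside the rule were picked with their values known, as the text says. The alternatives were DESeq2 1.42.0, median-of-ratios scaling, no filter, limma 3.58.1 on log2(FPKM + 1) and log2(FPKM + 0.1), sums per assembly cluster, a fit to the 4 libraries of a comparison, a replicate block, a fold of 2 with an adjusted p of at most 0.001, and each library left out. Tables and figures came from Python 3.11.15 with matplotlib 3.10.9, scipy 1.17.1, numpy 2.4.6 and pandas 2.3.3.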

Additional observations from a re-analysis of the deposited data

How the results depend on the processing

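Each of the 106 calls of named members kept its sign under each alternative that refits single unigenes. The named members were picked for a high level or a large change, so a kept sign is weak support. Of the 106 calls, 22 were lost with only the 4 libraries compared and 9 with DESeq2. Limma lost 10 on log2(FPKM + 1) and 14 on log2(FPKM + 0.1). Further calls were lost when single libraries were left out, most of them without F replicate 2. The sums per cluster and the stricter threshold were run for the counts only. Median-of-ratios scaling kept all 106 calls, and it moved the median log2 change of all unigenes to -0.41 at D20 and -0.32 at DT against F. Counts moved more. At D75 against F, the 23 calls became 39 with DESeq2, 55 without a filter, 46 with limma on log2(FPKM + 1), 0 with only the 4 libraries compared and 0 at the stricter threshold. Over all unigenes fitted, DESeq2 called 4.05% there, the fit without a filter 4.30% and limma on log2(FPKM + 1) 6.12%. The main fit called 0.671% higher and 1.16% lower, and the fit to 4 libraries called 0 of all unigenes. At D20 against F, the 87 calls became 57 of 97 units with fragments summed per cluster, where 28.9% of all units were called. At the stricter threshold they became 24, and the 74 at DT against F became 19. At R against F, 0 became 5 with DESeq2, 19 without a filter, 2 with limma on log2(FPKM + 1) and 23 with 4 libraries. Over all unigenes fitted, those settings called 0.737%, 0.774%, 0.337% and 2.69%, in that order. At D20 against D75, 39 became 14 with 4 libraries, where 5.61% of all unigenes were called, and 8 at the stricter threshold. At DT against D20, 0 became 3 with DESeq2, 4 without a filter and 1 with limma on log2(FPKM + 1). Those settings called 2.32%, 1.31% and 0.437% of all unigenes fitted. At R against DT, 49 became 8 at the stricter threshold. For the alternatives the cause was not tested.

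Leaving out each library gave 0 to 74 calls at D75 against F, 50 to 106 at D20 against F, 36 to 95 at DT against F, 0 to 21 at R against F, 22 to 59 at D20 against D75, 0 to 8 at DT against D20, and 16 to 73 at R against DT. A stage left with 1 library was assumed to vary like the others.

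Same-numbered libraries did not deviate together (correlations of -0.15 to 0.08), so the numbers were not read as pairs. With a replicate block, 28 members were called at D75, 88 at D20, 74 at DT and 0 at R against F, 37 at D20 against D75, 1 at DT against D20 and 49 at R against DT. With the D75 numbers crossed, an alternative chosen after seeing the data, 33 were called at D75 against F.

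With 2 libraries per stage and F replicate 2 the shallowest, a call that is missing does not show that a gene was unchanged, and members near 3 fragments cannot be told from 0.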
